A study of Mus musculus with 30 samples.

Results

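The 10 genes described here (Ttr, Kl, Folr1, Clic6, Kcnj13, Aqp1, Otx2, Slc4a5, Sostdc1 and Prlr) are genes that the epithelium of the choroid plexus expresses. They were taken by name from the 53278 genes of the SVZ count table and the 50508 genes of the striatum count table, and both tables hold all 10. RNA of the subventricular zone (SVZ), the neurogenic niche along the lateral ventricle, and RNA of the striatum beside it were sequenced from 15 C57Bl/6 mice, 1 library per mouse and tissue. The mice were NestinTK+GCV+ (n = 5), which carry a viral thymidine kinase under the second intron enhancer of rat Nestin and received ganciclovir (GCV), so that their dividing precursor cells are killed. Controls (n = 10) were wild-type littermates given GCV (NestinTK-GCV+, n = 3), wild-type littermates given PBS (NestinTK-PBS+, n = 3) and transgenic mice given PBS (NestinTK+PBS+, n = 4). They were adults of both sexes by the methods, which give 6 to 8 weeks for C57Bl/6 mice and state no age for the transgenic line, and all were treated by minipump for 4 weeks and perfused before dissection. Mice A1 to A5 are the ablated NestinTK+GCV+ mice, G1 to G3 are NestinTK-GCV+, P1 to P3 are NestinTK-PBS+ and T1 to T4 are NestinTK+PBS+, in the order of the mouse numbers in their labels, and a mouse keeps its name in both tissues. The label calls the SVZ samples neural precursor cells, while the protocol describes excised tissue.

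The choroid plexus hangs in the ventricle beside the SVZ. Its epithelium is a single layer of cells joined by tight junctions that secretes cerebrospinal fluid, moves ions and water with dedicated channels and transporters, and releases carrier proteins and growth factors into the fluid. Transthyretin, the product of Ttr, is the secreted carrier of thyroid hormone and is by far the most abundant message of this epithelium. The cells that line the SVZ itself, the ependyma, are ciliated and express little of it.

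Otx2, a homeodomain transcription factor that choroid plexus epithelium depends on, binds DNA at a core of TAATCC. Because the 10 genes moved together in the libraries described below, their promoters were searched for this core on both strands (TAATCC or GGATTA). RefSeq promoters of GRCm38.p6, from 250 bases before to 50 after a start site, were given for 6 of the 10 genes (Kl, Kcnj13, Aqp1, Otx2, Slc4a5 and Prlr) with 11 windows in all. The core stood in 1 of these 11 windows, beside 7.06% of all 32851 windows of the same length. That window belongs to Otx2 itself, at chr14:48665060-48665359 on the minus strand, and is shown because it is the only match among the genes; the core is in capitals and begins 211 bases before the start site.
Otx2 promoter: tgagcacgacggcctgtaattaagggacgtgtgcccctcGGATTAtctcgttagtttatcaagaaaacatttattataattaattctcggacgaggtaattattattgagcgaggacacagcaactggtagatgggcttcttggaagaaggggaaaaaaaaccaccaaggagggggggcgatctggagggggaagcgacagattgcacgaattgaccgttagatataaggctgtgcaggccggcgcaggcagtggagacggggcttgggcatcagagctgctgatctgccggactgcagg
A match of these letters is a description of the window and no evidence of binding.

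Library totals were 8360810 to 21056005 counts in the SVZ and 2626962 to 4693441 counts in the striatum. Levels are in CPM, counts per 1000000 counts of the library. A library with no count of a gene could still hold up to 3 counts' worth of it, which is 0.142 to 0.359 CPM in the SVZ and 0.639 to 1.14 CPM in the striatum; this covers counting error only, since amplified reads are not independent molecules. In the SVZ all 10 genes passed the filter on low values (above 1 CPM in at least 3 libraries, 16375 genes), and in the striatum 7 did, without Folr1, Kcnj13 and Slc4a5 (15419 genes). In bulk tissue, fewer cells of a type and less RNA per cell cannot be told apart.

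In the SVZ the genes were high together in 3 of 15 libraries. Ttr stood at 98809 CPM in NestinTK-PBS+ mouse P1, at 98259 CPM in NestinTK+PBS+ mouse T3 and at 44878.5 CPM in NestinTK-PBS+ mouse P2. In the NestinTK+GCV+ mice A1, A2, A3, A4 and A5 it was 187, 13.7, 176, 4.06 and 145 CPM. In the NestinTK-GCV+ mice G1, G2 and G3 it was 169, 1.40 and 23.5 CPM. The third NestinTK-PBS+ mouse, P3, had 109 CPM, and the other NestinTK+PBS+ mice T1, T2 and T4 had 789, 211 and 1.33 CPM. The 3 high libraries all came from PBS-treated mice, but both PBS groups also held mice at the level of the GCV groups, and even the lowest of the 3 was 56.8-fold above the next library. Among the other 12 libraries, which include all 5 ablated mice, Ttr still varied from 1.33 to 789 CPM.

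**Figure D1:**
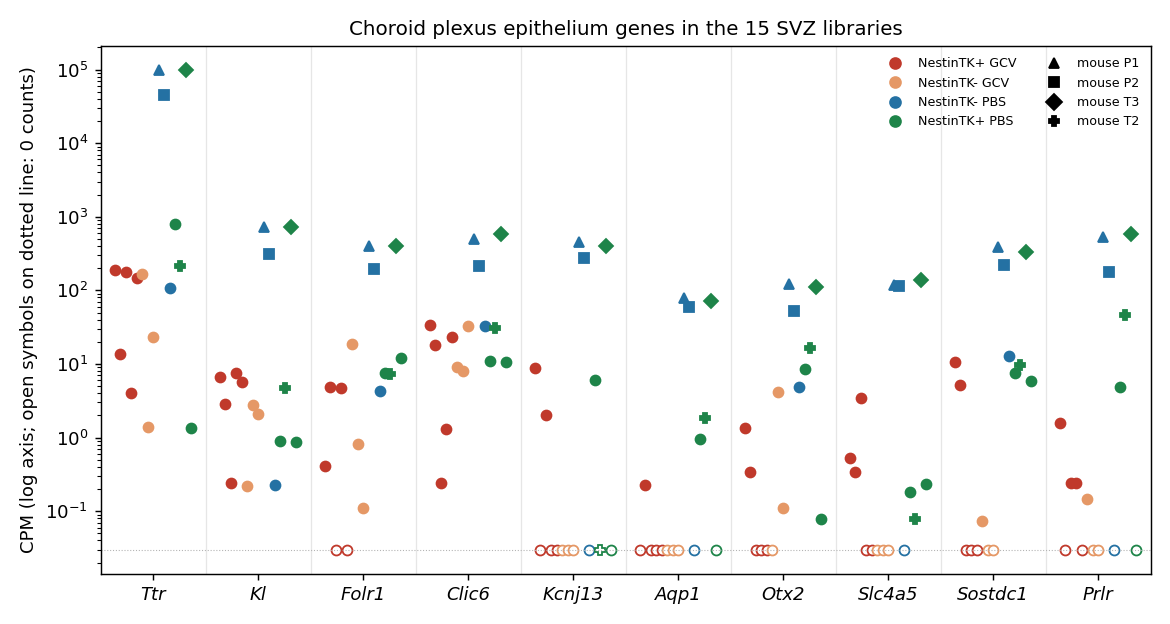
CPM of each gene (log axis) in the 15 SVZ libraries, 1 symbol per library, coloured by group and ordered by group within a gene; open symbols on the dotted line are libraries with 0 counts. Mice P1, T3 and P2 lie above every other library for all 10 genes, and the other symbols of each colour are spread over the lower range.

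The transporters and channels followed the same 3 libraries. Kcnj13 (chr1:87386363-87394729), the inward rectifier potassium channel Kir7.1, had 457, 404 and 273 CPM in mice P1, T3 and P2, no count in 9 of the other 12 libraries and at most 8.86 CPM in them. Of its exon sequence, 49.1% lies within Gigyf2 on the opposite strand, and without a stated strand setting reads of these genes cannot be told apart in the SVZ. Aqp1 (chr6:55336432-55348555), the water channel of the apical membrane, had 79.1, 72.3 and 59.7 CPM and at most 1.82 CPM elsewhere, with no count in 9 libraries. Slc4a5 (chr6:83219828-83304945), a sodium bicarbonate cotransporter, had 117, 140 and 114 CPM and at most 3.47 CPM elsewhere. Clic6 (chr16:92485736-92541243), a protein of the chloride intracellular channel family, had 497, 578 and 217 CPM, and it alone of the 4 had counts in every other library, from 0.239 to 33.5 CPM with a median of 14.4. These 4 genes thus separated the libraries to different degrees, Aqp1 by 32.8-fold and Clic6 by 6.49-fold between the lowest of the 3 and the highest of the 12.

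Receptors and secreted proteins did so as well. Folr1 (chr7:101858331-101870788), the folate receptor that carries folate into the cerebrospinal fluid, had 406, 399 and 198 CPM in mice P1, T3 and P2 and 0 to 18.7 CPM elsewhere. Prlr (chr15:10177238-10349180), the prolactin receptor, had 535, 578 and 178 CPM and was next highest at 45.9 CPM in mouse T2, whereas 6 of the 12 libraries had no count. Kl (chr5:150952607-150993817), the co-receptor for FGF23, had 721, 732 and 313 CPM and 0.220 to 7.64 CPM elsewhere. Sostdc1 (chr12:36314139-36318452), a secreted antagonist of BMP and Wnt signals, had 386, 330 and 222 CPM and 0 to 12.7 CPM elsewhere. Otx2 (chr14:48657677-48673819), whose promoter is shown above, had 122, 110 and 52.1 CPM, and mouse T2 was again the next highest with 16.6 CPM. The smallest gap among the 10 genes was that of Otx2, 3.15-fold between mouse P2 and mouse T2.

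Per kilobase of exon, which is the scale on which genes can be compared in these whole-transcript libraries, Ttr stood far above the rest. In mouse P1 it had 83312 CPM per kilobase, followed by Kcnj13 with 360, Sostdc1 with 217, Folr1 with 177, Clic6 with 127 and Kl with 77.2. Prlr, Aqp1, Otx2 and Slc4a5 had 34.8, 30.1, 28.9 and 20.2 CPM per kilobase, which are close to each other. The order rests on single libraries, so neighbours in it were not tested.

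The proportions of the genes were close between the 3 libraries. For every gene, the CPM of mouse T3 was 0.856 to 1.20 times that of mouse P1. Mouse P2 had 0.454 times the Ttr of mouse P1, and Kl, Folr1, Clic6, Kcnj13, Otx2 and Sostdc1 lay between 0.427 and 0.597 times. Prlr was lower, at 0.332 times, and Aqp1 and Slc4a5 were higher, at 0.756 and 0.971 times. Set against Ttr, Kl had 7.29, 7.45 and 6.98 counts per 1000 Ttr counts in mice P1, T3 and P2, and Folr1 had 4.11, 4.06 and 4.41. Otx2 had 1.23, 1.12 and 1.16 counts per 1000 Ttr counts. Slc4a5 varied most, by 2.14-fold, followed by Aqp1 with 1.81-fold.

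In the other 12 libraries the same proportions were not kept. Kl ranged from 1.15 to 2000 counts per 1000 Ttr counts and Clic6 from 1.36 to 8000. Folr1 reached 8941 in mouse T4, which had 152 counts of Folr1 and 17 of Ttr, while mice A3 and A5 had 1471 and 1227 counts of Ttr and no count of Folr1. Mouse G1 had 255 counts of Folr1 beside 3 of Kl and none of Kcnj13 or Otx2. At these levels a gene was thus often present without the others.

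**Figure D2:**
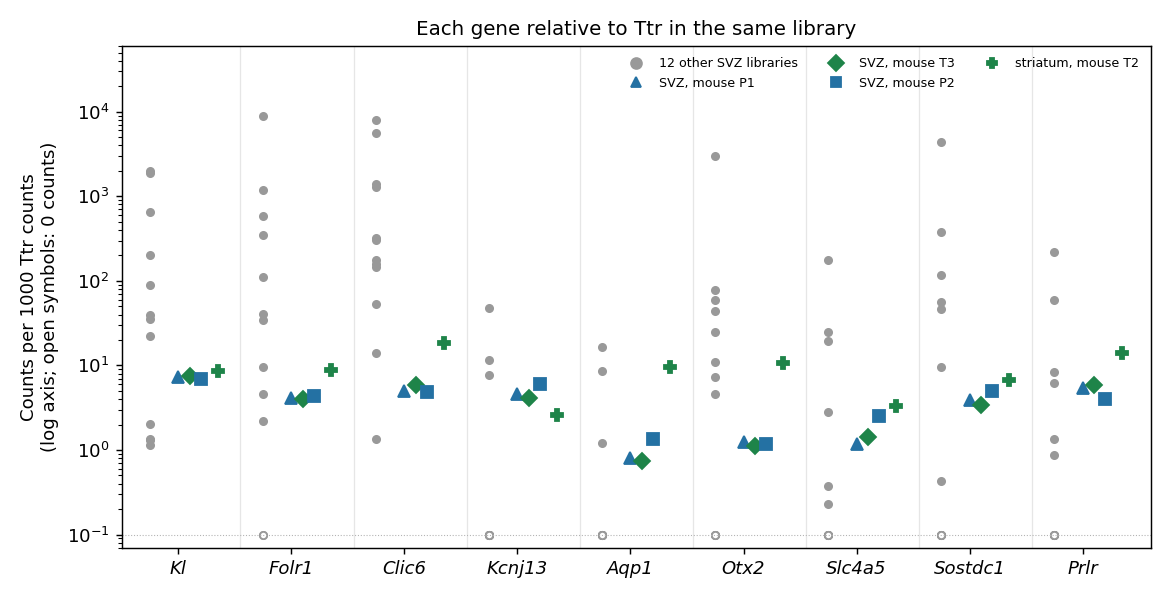
Counts of each gene per 1000 Ttr counts of the same library (log axis), for the 3 SVZ libraries with the most Ttr, the striatum library of mouse T2 and, in grey, the other 12 SVZ libraries; open symbols have 0 counts. The 3 SVZ symbols lie together for each gene, within 2.14-fold at most, while the grey points spread over several orders.

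Correlation with Ttr was examined across libraries on log2 CPM. Over all 15 SVZ libraries Spearman's rho with Ttr was 0.86 for Kcnj13, 0.85 for Prlr, 0.73 for Aqp1, 0.71 for Sostdc1, 0.69 for Slc4a5, 0.67 for Clic6, 0.63 for Otx2, 0.50 for Kl and 0.44 for Folr1. Kcnj13 and Prlr were 2nd and 3rd among the 16374 other genes tested, whose median was 0.036. These values are descriptions, since the 3 high libraries stand apart from the rest and share their ranks. Within the 12 other libraries, Pearson's r was 0.55 for Kcnj13 and 0.52 for Prlr, and from -0.21 (Kl) to 0.40 (Aqp1) for the other 7. None of the 9 genes reached an adjusted p under 0.05 (permutation test with 100000 resamples, Benjamini-Hochberg adjustment over 16374 genes), where 0% of all genes did, and none had an unadjusted p under 0.05. With Spearman's rho in the same 12 libraries, Kcnj13 (rho = 0.71, permutation p = 0.0121) and Prlr (rho = 0.70, p = 0.0143) had unadjusted p-values under 0.05, both with an adjusted p of 1. Without the 2 libraries farthest from the median of Ttr, r was 0.56 for Kcnj13 and 0.46 for Prlr, and -0.40 for Kl. The tight relation of the 10 genes was therefore seen among the 3 high libraries and against the rest, and was not detectable within the other 12.

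The 8 genes outside the list with the highest rho with Ttr over the 15 SVZ libraries were Ttc23 (0.87), Tmem72 (0.84), Pld6 (0.83), 6430573P05Rik (0.83), Spcs1 (0.81), Erlin2 (0.81), Frmpd1os (0.81) and Ndufv3 (0.81). Tmem72 is among 50 other choroid plexus genes set out as a list. It had 97.8 to 140 CPM in the 3 libraries and at most 5.00 CPM elsewhere. Frmpd1os had 9.35 to 20.8 CPM against at most 0.871. Spcs1, which has 177 to 179 CPM in the 3 libraries and 61.8 to 173 CPM elsewhere, has a high rho with a small difference in level. Pld6 was near the floor, with 0.0754 to 2.15 CPM in the 3 libraries and at most 1.27 CPM elsewhere. The gene 6430573P05Rik had 0.964 to 2.56 CPM in the 3 and reached 8.96 CPM elsewhere. The rho of these genes rests on low values.

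Of these 50 other choroid plexus genes, 49 were in the SVZ table, and 41 of the 49 were higher in each of the 3 libraries than in every other, as were 2.08% of all genes tested. The 8 with the highest mean were Enpp2, 1500015O10Rik, Igfbp2, Slc12a2, Spint2, Slc4a10, Ace and Slc4a2. Enpp2, which makes lysophosphatidic acid, had 5204 to 11010 CPM in the 3 libraries and 121 to 442 CPM in the rest. Igfbp2, a secreted IGF-binding protein, had 293 to 531 against 0.109 to 71.6 CPM, and Ace, angiotensin-converting enzyme, 189 to 377 against 1.27 to 67.6 CPM. 1500015O10Rik had 387 to 906 against 0 to 23.7 CPM, Spint2, a serine protease inhibitor, 209 to 334 against 9.39 to 84.5 CPM, and the anion exchanger Slc4a2 116 to 301 against 1.75 to 25.8 CPM. The ion transporters Slc12a2 (121 to 244 against 29.0 to 136 CPM) and Slc4a10 (96.6 to 164 against 26.9 to 128 CPM) overlapped.

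Marker lists of other cells were summed in the same libraries. The meningeal or stromal fibroblast list (12 genes, 9 to 11 of them with a count) had 77.4 to 120 CPM in the 3 libraries and 4.43 to 57.8 CPM in the rest; the choroid plexus has such a stroma, and Igf2 is in both this list and that of the other choroid plexus genes. The ependymal list had 320 to 464 CPM in the 3 libraries and 28.0 to 432 CPM in the rest, with all 12 of its genes present in the 3. Mia is in both the ependymal list and that of the other choroid plexus genes. The lists of endothelial cells (380 to 389 against 275 to 500 CPM), striatal medium spiny neurons (8002 to 9282 against 3743 to 13447 CPM), lateral septum neurons (142 to 155 against 92.9 to 632 CPM), oligodendrocytes (3721 to 4391 against 2218 to 10752 CPM), neuroblasts (185 to 357 against 93.5 to 646 CPM) and cortical excitatory neurons (16.0 to 22.3 against 2.29 to 682 CPM) lay within the range of the rest. The red blood cell list had 2.15 to 4.42 against 2.37 to 35.7 CPM. Which tissue pieces were excised is not recorded per mouse, and the part of dissection in the 3 libraries was not tested directly.

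The first comparison asks whether ablation of the precursors changed these genes in the SVZ. Pooled against 10 controls, the 5 NestinTK+GCV+ mice had a lower mean for all 10, and 5 genes were called lower at a nominal p of at most 0.01 and a change of at least 2-fold: Ttr, Folr1, Aqp1, Otx2 and Prlr. In this comparison 1.23% of the 16375 genes tested were called lower. The mean of Ttr was 105 ± 89.3 CPM (SD, n = 5) in ablated mice and 24325 ± 41521 CPM (SD, n = 10) in controls, with a fitted log2 fold change of -7.79 (SE 2.59, edgeR's quasi-likelihood test, adjusted p = 0.377). Otx2 had -6.41 (SE 1.83), Prlr -8.22 (SE 2.47) and Folr1 -5.66 (SE 1.73), and the same test gave them adjusted p-values of 0.347 to 0.354. Aqp1 had 2 counts over all 5 ablated libraries and 3471 over the 10 controls. The ratio of pooled CPM was 567 (95% exact interval 157 to 4686 from counting error only). Aqp1 passed the filter through 4 control libraries and no ablated one, and mice P1, P2 and T3 held 1665, 792 and 975 of its counts. Without these 3 libraries it had 2 against 39 counts, a ratio of 9.92 (95% exact interval 2.57 to 84.8 from counting error only). With all libraries, Kl, Clic6, Kcnj13, Slc4a5 and Sostdc1 had log2 fold changes from -5.65 to -3.15. Their unadjusted p-values by edgeR's test were 0.0149 to 0.0255, and they were not called. By edgeR's test with all libraries, no gene of the 10 had an adjusted p under 0.05, beside 0.00611% (1 gene) of all genes. All 10 had an unadjusted p under 0.05, beside 9.79%.

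The SD of Ttr in controls exceeds its mean, and for none of the 10 genes were the groups separate (0.232% of all genes were, with ablated mice lower). The median log2 fold change of the 10 was -5.65, beside -0.033 for all genes tested. On the log2 scale, where a few high libraries weigh less, Ttr differed by -2.86 (5.70 ± 2.53 after ablation, SD, n = 5, and 8.55 ± 6.04 in controls, SD, n = 10), which was within the spread between mice (two-sided exact permutation test over 3003 splits, p = 0.340, and 0.340 with Benjamini-Hochberg adjustment over the 2 tissues).

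Without the 3 libraries in which Ttr exceeds 1% of counts, the same comparison called none of the 8 genes that still passed the filter, while 1.02% of 15545 genes were called. None of the 8 had an unadjusted p under 0.05, beside 6.13% of genes. Ttr had a log2 fold change of -0.66 (SE 1.11), Clic6 -0.17 (SE 0.81), Sostdc1 -0.58 (SE 1.68) and Folr1 -1.71 (SE 1.35). Kl (1.65, SE 1.08) and Kcnj13 (1.42, SE 2.00) were above 0. Otx2 (-3.63, SE 1.80) and Prlr (-3.89, SE 2.14), whose highest remaining control was mouse T2, had the most negative values (edgeR's quasi-likelihood test, adjusted p = 0.832 and 0.858). The median of the 8 was -0.62, and log2 Ttr was then 0.43 higher in ablated mice (exact permutation test, p = 0.806).

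**Figure D3:**
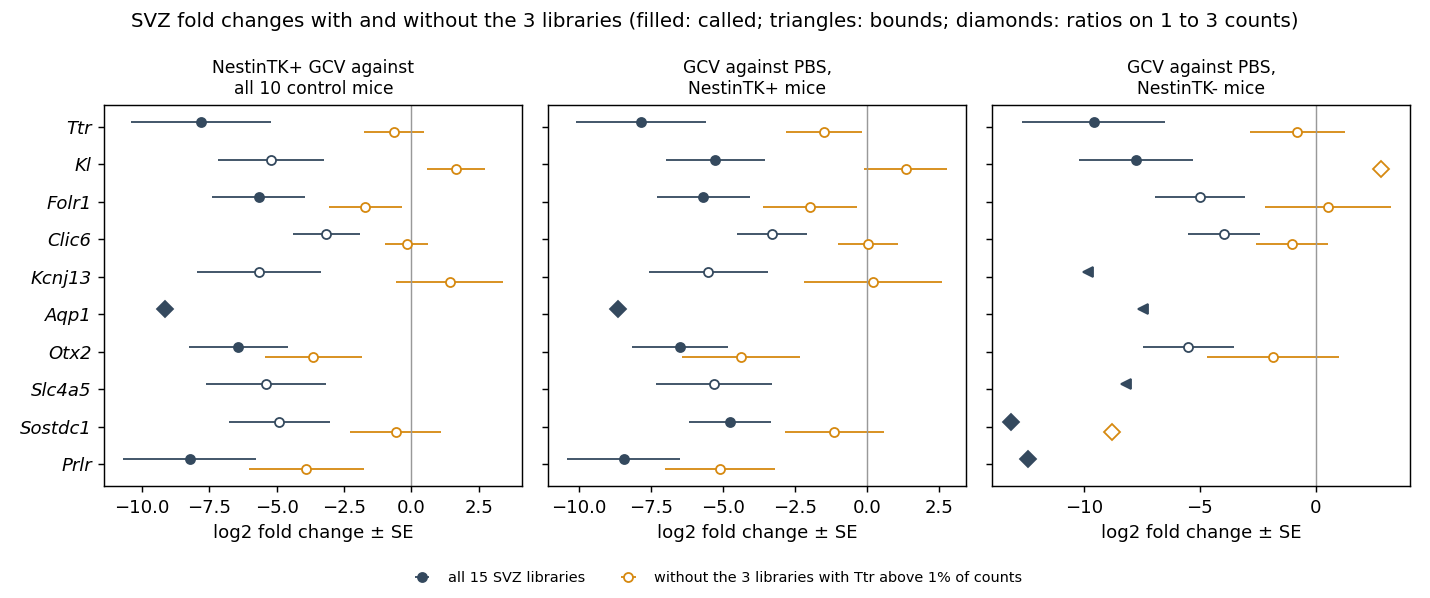
Fitted log2 fold changes with standard errors in the SVZ for 3 comparisons, with all 15 libraries (dark) and without the 3 libraries with Ttr above 1% of counts (orange). Filled symbols were called, triangles are bounds for genes with no count in a group, and diamonds are ratios where a group has 1 to 3 counts. Genes that were not tested have no symbol, and neither have tested genes with at most 3 counts in both groups. The latter are Kcnj13 and Prlr in NestinTK- mice without the 3 libraries. With all libraries every value is below 0 in each panel, and without the 3 no symbol is filled.

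The 4 groups allow the same genes to be compared where no precursor was ablated. Between GCV and PBS in NestinTK- mice, which lack the transgene, 7 of the 10 genes were called lower (Ttr, Kl, Kcnj13, Aqp1, Slc4a5, Sostdc1 and Prlr), beside 0.8% of all genes. Ttr had a log2 fold change of -9.58 (SE 3.10) and Kl of -7.76 (SE 2.47), both with an adjusted p of 0.644 by edgeR's quasi-likelihood test. Kcnj13, Aqp1 and Slc4a5 had no count in any of the 3 NestinTK-GCV+ mice. Their means there were thus at least 918-fold, 175-fold and 290-fold below those of the NestinTK-PBS+ mice, with 3 counts per library as the floor. Mouse P3 also had no count of these genes, so the bounds rest on mice P1 and P2. Aqp1 and Slc4a5 passed the filter only with mice P1, P2 and T3 included. They were thus tested through PBS-treated mice in which they are high. Their calls here, and that of Aqp1 in NestinTK+ mice below, are descriptions only. Sostdc1 had 1 count in NestinTK-GCV+ mice and 11177 in NestinTK-PBS+ mice, and Prlr 2 and 13610. With the genes at 0 set to their bound and these 2 at their ratio, the median log2 fold change of the 10 was -7.97. Each NestinTK-GCV+ mouse was under each NestinTK-PBS+ mouse for 3 of the 10 genes (Clic6, Otx2 and Sostdc1), as for 5.43% of all genes, and for the other 7 mouse P3 was within or below the range of the GCV mice. Between GCV and PBS in NestinTK+ mice, where GCV does ablate, 7 were called lower too (Ttr, Kl, Folr1, Aqp1, Otx2, Sostdc1 and Prlr), beside 0.971% of all genes, with a median of -5.59 and with Ttr at -7.83 (SE 2.26). Between the transgenic and the wild-type mice under GCV, which differ in ablation and in the transgene within 1 treatment, none of the 10 was called, beside 0.953% of all genes. By the same test none was called between NestinTK+PBS+ and NestinTK-PBS+ mice, beside 0.208%.

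Under GCV, 1 gene had an unadjusted p under 0.05, beside 7.44% of all genes. It was Sostdc1, with 147 counts in the 5 transgenic libraries and 1 count in the 3 wild-type ones (edgeR's quasi-likelihood test, p = 0.0297, adjusted p = 0.667), a ratio of pooled CPM of 117 (95% exact interval 20.8 to 4671 from counting error only). All 147 Sostdc1 counts came from mice A1 (101) and A2 (46), while mice A3, A4 and A5 had no count. Mice G2 and G3 had no count either, and the 1 wild-type count was that of mouse G1. The interval does not cover this spread between mice, so the ratio does not describe every transgenic mouse. The median log2 difference of the 10 under GCV was 2.05 as fitted, transgenic above wild type. It was 1.61 over 9 genes with those at 0 to 3 counts in a group set to their bound or ratio. Under PBS 0 genes had an unadjusted p under 0.05 by the same test, beside 2.76% of all genes. The interaction of transgene and GCV was called for none of the 10, beside 0.849% of all genes, and 1 of them, Sostdc1, had an unadjusted p under 0.05 by the same test, beside 5.06%. For Ttr the term was 1.75 (SE 2.81). Without the 3 high libraries none of the 8 genes tested was called in the 4 comparisons, where 0.598% of genes were called for GCV against PBS in NestinTK+ mice, 1.9% in NestinTK- mice, 0.785% between genotypes under GCV and 1.58% under PBS. The NestinTK-PBS+ group then held 1 mouse, taken to vary like the others. For GCV against PBS in NestinTK+ mice, Otx2 (-4.38) and Prlr (-5.11) then had unadjusted p-values of 0.0485 and 0.0172 by the same test, and 4.63% of genes were under 0.05. In NestinTK- mice Sostdc1, with fewer counts under GCV, had 0.0111, where 7.94% of genes were under 0.05. Between genotypes under GCV, Kcnj13 and Sostdc1, both with more counts in transgenic mice, had 0.0455 and 0.0205, where 6.18% of genes were under 0.05, and under PBS none of the 8 was, beside 6.68%. The adjusted p-values of these genes were 0.516 to 1. The libraries of GCV-treated mice carry the lower sample numbers and those of PBS-treated mice the higher ones, and these cannot be told apart. Of the 3 high mice, P1 and P2 are from the 34 number series and T3 from the 40 series, and all ablated mice are from the 40 series.

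Single mice decided several of these counts. Without 1 ablated mouse the number of genes called between ablated and control mice fell to 2 (Otx2 and Prlr, without A1, A3 or A5) or 3 (these and Folr1, without A2 or A4), beside 1.20% to 1.77% of all genes. Without mouse T3 only 1 of the 10 genes, Prlr, was called between GCV and PBS in NestinTK+ mice, beside 0.591% of all genes. In that fit 7 genes were called lower in transgenic than in wild-type mice under PBS, beside 0.429%, and 1, Sostdc1, was called higher under GCV, beside 0.852%. Without mouse G2 or G3 the count for NestinTK- mice was 4 or 3, beside 0.648% or 0.968%.

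In the striatum, 1 library stood apart, and it was from another mouse. NestinTK+PBS+ mouse T2 had 1423 CPM of Ttr (5062 counts), 47.4-fold above the next library. The other NestinTK+PBS+ mice T1, T3 and T4 had 9.28, 2.25 and 7.55 CPM. The NestinTK+GCV+ mice A1, A2, A3, A4 and A5 had 9.79, 1.45, 3.25, 0 and 9.73 CPM, the NestinTK-GCV+ mice G1, G2 and G3 had 0.533, 1.37 and 1.45 CPM, and the NestinTK-PBS+ mice P1, P2 and P3 had 16.8, 30.0 and 12.9 CPM. Apart from mouse T2, Ttr was thus at 0 to 124 counts per library.

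All 10 genes were highest in the striatum of mouse T2 by CPM. Folr1 had 45 counts there and at most 3 in any other library, Kcnj13 13 and at most 3, and Slc4a5 17 and at most 5. Kl had 44 counts there and at most 17 elsewhere, Aqp1 48 and at most 8, Otx2 54 and at most 17, Sostdc1 34 and at most 7, and Prlr 71 and at most 12. Clic6 behaved differently, with 94 counts in mouse T2 and 27 to 97 counts in every other library, 1.13-fold above the next library by CPM. Across all genes tested, 17.8% were highest in this library. The proportions to Ttr were not those of the 3 SVZ libraries (Kl 8.69, Folr1 8.89, Aqp1 9.48 and Otx2 10.7 counts per 1000 Ttr counts), but this kit reads the 3′ end of transcripts, so that ratios between genes cannot be set against those of the SVZ.

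**Figure D4:**
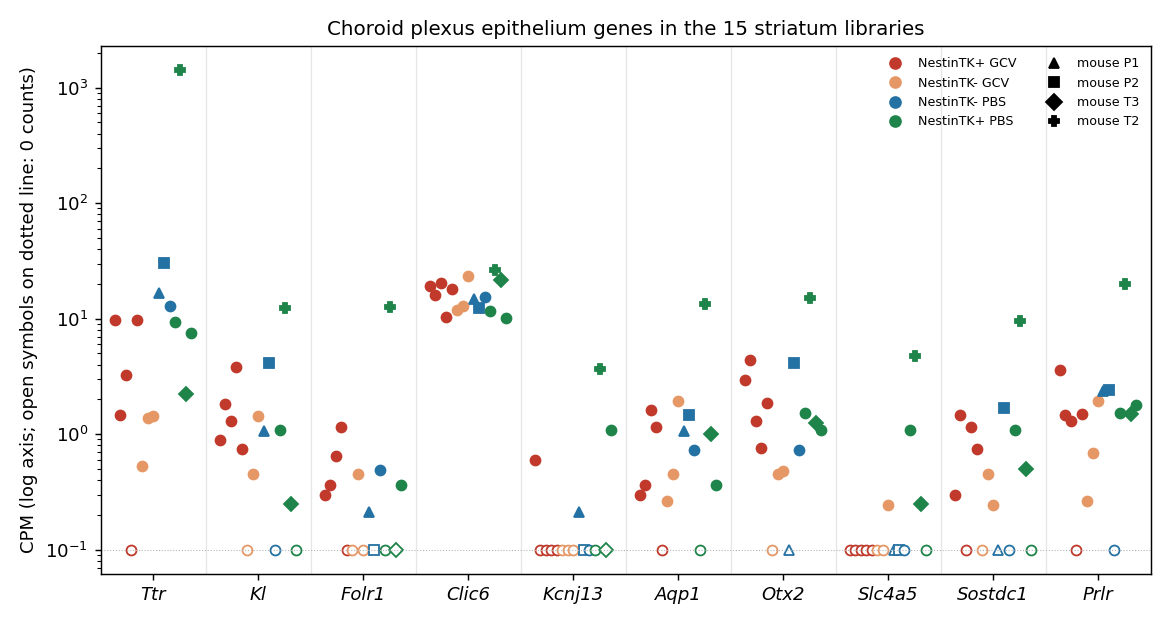
CPM of each gene (log axis) in the 15 striatum libraries, drawn as for the SVZ. Mouse T2 is the highest library for every gene and far above the rest for Ttr, while Clic6 is present at a like level in all libraries and mouse P2 is the next highest for Ttr.

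Other tissue markers also differed in this library. The striatal medium spiny neuron list had 4888 CPM in the striatum of mouse T2 and 9267 to 11907 CPM in the other 14 libraries, with all 10 genes present. The lateral septum list had 373 against 155 to 214 CPM, the oligodendrocyte list 6095 against 2115 to 4679 CPM, the endothelial list 443 against 208 to 402 CPM and the ependymal list 84.3 against 22.7 to 74.4 CPM. The fibroblast (127 against 51.1 to 143 CPM), neuroblast (190 against 125 to 268 CPM), cortical excitatory neuron (142 against 16.2 to 621 CPM) and red blood cell (15.2 against 3.63 to 20.6 CPM) lists lay within the range of the rest. Their part in the level of the choroid plexus genes was not tested.

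Ablated and control mice were compared in the striatum in the same way. Of the 7 genes tested, 1 was called lower, Ttr, beside 0.24% of 15419 genes, with a log2 fold change of -4.88 (SE 1.67, edgeR's quasi-likelihood test, adjusted p = 0.282). No group was separate from the other for any of the 10 genes (0.136% of all genes were, with ablated mice lower). Ttr was 4.85 CPM on average after ablation and 151 CPM in controls, and on the log2 scale the difference of -1.59 was within the spread between mice (exact permutation test, p = 0.313; 0.340 adjusted over the 2 tissues). Without mouse T2 none of the 7 was called, beside 0.622% of 15269 genes, and Ttr had -0.94 (SE 0.68); no gene of the 7 had an unadjusted p under 0.05 by edgeR's test, beside 11.5% of genes. The call of Ttr was also lost without any 1 of the 5 ablated mice, where 0.472% to 0.861% of genes were called. The median of the 7 went from -0.89 to 0.14, beside 0.0035 and 0.0081 for all genes. Aqp1 (-1.52 with all libraries), Prlr (-0.99), Sostdc1 (-0.89), Kl (-0.29), Otx2 (-0.12) and Clic6 (0.014) were not called.

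Between GCV and PBS in NestinTK+ mice, Ttr was the only gene of the 10 with an adjusted p under 0.05 in any main comparison (log2 fold change -6.13, SE 1.21, edgeR's quasi-likelihood test, adjusted p = 0.0429), beside 0.149% of all genes there and 0.61% called lower. Without mouse T2 it had -0.43 (SE 0.56, adjusted p = 0.921) and none of the 7 was called, beside 0.694%, and without mouse T1 2 were (Ttr and Aqp1), beside 1.62%. In NestinTK- mice Ttr was not called with all libraries, beside 1.8% called lower, and was called without mouse T2. There each of the 3 NestinTK-GCV+ libraries had less Ttr than each of the 3 NestinTK-PBS+ libraries, as had 11.6% of all genes, and the log2 fold change was -4.04 (SE 1.94, unadjusted p = 0.0476, beside 16.1% of genes under 0.05) with all libraries and -4.05 (SE 0.70, adjusted p = 0.0016) without mouse T2, whose spread enters the first fit. The fit without it called 2.72% of genes. Between NestinTK+PBS+ and NestinTK-PBS+ mice Ttr turned from 4.11 (SE 1.25), called higher beside 0.642% of genes, to -1.61 (SE 0.57), called lower beside 0.596% called in either direction, once mouse T2 was left out. Without mouse P1 or P3 none of the 7 was called in this comparison, beside 0.875% or 0.679% of genes, and without P2 there were 3 (Ttr, Otx2 and Sostdc1), beside 0.848%. The interaction of transgene and GCV was called for none of the 7 with all libraries, beside 3.28% of genes, and without mouse T2 it was called for Ttr alone (3.61, SE 0.91, edgeR's quasi-likelihood test, adjusted p = 0.0272), beside 3.71% of genes. None of the 7 was called between the GCV groups, beside 2.1% of genes, and 1 was (higher) without mouse T2, beside 2.31%. With all libraries 1 of the 7 had an unadjusted p under 0.05 by edgeR's test, beside 17.7% of genes.

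Within the 14 striatum libraries other than that of mouse T2, r with Ttr was 0.52 for Prlr (permutation p = 0.0589, adjusted p = 0.663 over 15418 genes) and -0.11 to 0.30 for Kl, Clic6, Aqp1, Otx2 and Sostdc1; 0% of all genes reached an adjusted p under 0.05, and none of the 6 an unadjusted one. Without the 2 libraries farthest from the median of Ttr, r of Prlr was 0.24. Over all 15 libraries rho was 0.62 for Prlr, 0.38 for Otx2, 0.23 for Clic6, 0.19 for Aqp1, 0.17 for Kl and 0.12 for Sostdc1. The 8 other genes with the highest rho were Rhog (0.92), Egfem1 (0.89), Cfap126 (0.88), Slc41a1 (0.86), Kcmf1 (0.86), Aco1 (0.84), Pithd1 (0.83) and Zcchc24 (0.83), none of them in the list of other choroid plexus genes.

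The order of the mice for Ttr was not the same in both tissues. Mice P1, T3 and P2, the 3 highest in the SVZ, were 3rd, 10th and 2nd of 15 for Ttr in the striatum, with 16.8, 2.25 and 30.0 CPM. Mouse T2, the highest in the striatum, was 5th in the SVZ with 211 CPM, and its SVZ library also had the highest lateral septum list (632 CPM against at most 169 CPM in the others). Over the 11 mice outside these 4, Ttr in the SVZ and Ttr in the striatum had r = 0.43 (permutation p = 0.180) and rho = 0.49 (p = 0.131), 1 relation in this family. Without the 2 mice farthest from the median in the SVZ, r was 0.73 (exact permutation test, p = 0.0269) and rho 0.55 (p = 0.133), n = 9. A relation between the tissues was thus not shown in the 11 mice, which leave out P1 and P2, 2 mice among the 3 highest in both tissues.

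**Figure D5:**
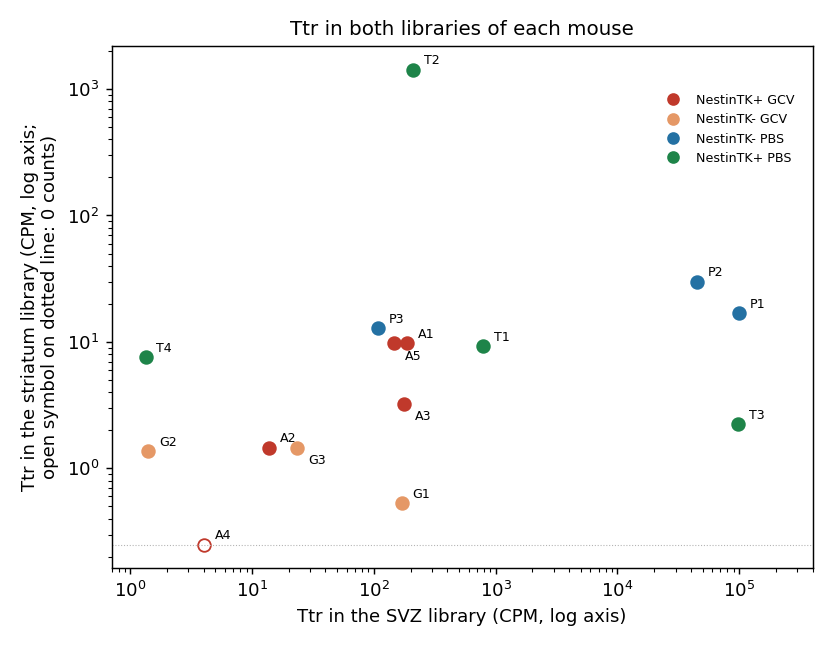
Ttr in the SVZ library (x, CPM, log axis) against Ttr in the striatum library (y, CPM, log axis) of each of the 15 mice, labelled with the name of the mouse and coloured by group; the open symbol has 0 counts in the striatum. Mice P1, P2 and T3 lie to the right and mouse T2 at the top, and P1 and P2 are also 3rd and 2nd on the striatum axis, where T3 is 10th.

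The list of 50 other choroid plexus genes was compared between ablated and control mice with and without the same libraries. In the SVZ 12 of 47 tested were called lower and 0 higher, beside 1.23% of all genes lower, with a median log2 fold change of -3.51. Without the 3 libraries 0 of 32 were called, beside 1.02%, with a median of -0.068. The genes of the 47 outside these 32 passed the filter only with mice P1, P2 and T3 included. These mice are PBS-treated controls, so such genes entered through the group where they were high, and their calls are descriptions only. The same holds for the counts in NestinTK- mice and by role that follow. In NestinTK- mice, GCV against PBS, 12 of 47 were called lower as well, beside 0.8%, with a median of -4.41. By role, 4 of 9 secreted proteins, 1 of 13 transporters and channels, 1 of 5 junction proteins and keratins, 0 of 2 transcription factors and 6 of the other 18 genes were called lower after ablation. Enpp2 (-3.99, SE 1.20) and Igfbp2 (-3.98, SE 1.39) were among them. In the striatum 0 of 31 were called between ablated and control mice with all libraries (median -0.18), beside 0.24% called lower, and 0 of 30 without mouse T2 (median 0.055), beside 0.622%. There 27 of the 49 genes, of which 31 were tested, were highest in mouse T2, beside 17.8% of all genes tested. Enpp2 had 674 CPM in that library and 125 to 268 CPM in the others, Slc12a2 165 against 51.0 to 133 CPM and Slc4a2 73.7 against 9.14 to 38.6 CPM. Between ablated and control mice Enpp2 had a log2 fold change of -0.88 (SE 0.24, edgeR's quasi-likelihood test, adjusted p = 0.140) there and of -0.62 (SE 0.13, adjusted p = 0.0250) without mouse T2, both under 2-fold and so not called. Vat1l, Htr2c, Slc4a10, Slco1c1 and Car12, the other 5 of the 8 highest by mean, lay within the range of the other libraries.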

How the data were processed

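The deposited values are raw read counts for each gene, without normalization, in 1 table per tissue. The kit for the SVZ was SMART-Seq v4 (10 cycles of amplification, no strand mark) and that for the striatum QuantSeq 3′ FWD; per the submitters' processing notes reads were trimmed with Trimmomatic 0.36, aligned with STAR 2.5.3a to mm10 and counted with featureCounts. The strand setting is not given in the sources used here. Every column matched 1 sample title. Genes above 1 CPM in at least 3 libraries were fitted per tissue with TMM factors and edgeR's quasi-likelihood test (edgeR 4.0.16, R 4.3.3), two-sided, with p-values adjusted by Benjamini-Hochberg over every gene fitted; calls need a nominal p of at most 0.01 and 2-fold. All pairs of groups used 1 fit of 4 groups. Standard errors are the log2 fold change divided by the root of the F statistic. Log2 CPM used a prior count of 2. Correlations used 100000 seeded permutations, or every order under 10 mice (numpy 2.4.6, scipy 1.17.1). Both steps were tested on simulated data. DESeq2 1.42.0 and limma-voom (limma 3.58.1) were alternatives. Positions are from a GENCODE annotation of GRCm38, promoters from RefSeq.

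The 10 genes, the list of 50 other choroid plexus genes, the 10 cell type lists and the tests were chosen with earlier results of these data known. The genes named are the 10, the 8 genes per tissue with the highest rho with Ttr and the 8 other choroid plexus genes with the highest mean CPM per tissue. Libraries were left out by Ttr above 1% of counts, or for the striatum because mouse T2 stands apart; only the labels set the groups. Mice A1 to A5 are 4001, 4003, 4035, 4052 and 4055 in the labels, G1 to G3 are 3403, 4013 and 4051, P1 to P3 are 3414, 3422 and 3430, and T1 to T4 are 3434, 4041, 4045 and 4054. The labels give no replicate other than the mouse, so the spread is that between single animals.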

Additional observations from a re-analysis of the deposited data

Results flagged for a closer look

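In groups of 4 to 10 libraries, the gap between the highest or lowest library and its neighbour was set against the range of the group (Dixon's 95% limit, 0.829 for 4, 0.71 for 5 and 0.466 for 10 libraries) for the 10 genes, in 60 groups in all. For normal values chance flags about 1 in 20 groups. The CPM values are skewed and often 0, and the genes share libraries, so this rate need not hold here. Among the 4 NestinTK+PBS+ mice, the SVZ of mouse T3 was far above the others for all 10 genes, at 98259 CPM for Ttr, 732 for Kl, 399 for Folr1, 578 for Clic6, 404 for Kcnj13, 72.3 for Aqp1, 110 for Otx2, 140 for Slc4a5, 330 for Sostdc1 and 578 for Prlr. The 10 pooled controls had no such library in the SVZ, since 3 were high together.

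In the striatum, mouse T2 was far above the other NestinTK+PBS+ mice for Ttr (1423 CPM), Kl (12.4), Folr1 (12.7), Aqp1 (13.5), Otx2 (15.2), Sostdc1 (9.56) and Prlr (20.0). It was also far above the other 9 controls for these 7 genes, and for Kcnj13 (3.65 CPM) and Slc4a5 (4.78 CPM); Clic6 was the 1 gene of the 10 in which it did not stand out.

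Among the 5 NestinTK+GCV+ mice some low values stood apart. In the SVZ mouse A1 had 8.86 CPM of Kcnj13, 1.35 of Otx2 and 1.56 of Prlr, mouse A2 had 0.225 CPM of Aqp1 (2 counts, with none in the other ablated mice) and mouse A3 had 3.47 CPM of Slc4a5. In the striatum mouse A1 had 0.593 CPM of Kcnj13 (2 counts, with none in the other ablated mice).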

How the results depend on the processing

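No paired analysis was possible because the groups compared within a tissue held different mice. The permutation tests of Ttr and the counts correlated with Ttr stayed on the same side of their thresholds under every alternative run. Between ablated and control mice in the SVZ, 5 genes were called, and 0 with limma-voom, with robust spread, without the libraries with Ttr above 1% or against NestinTK-GCV+ mice alone (4 genes tested); log2 Ttr then differed by 0.43 without those libraries in the permutation test. Adjusted p-values for ablated against control moved both ways over the alternative settings. They ran from 0.00242 to 0.999 for Ttr and from 0.0184 to 0.832 for Otx2. For Folr1 they ran from 0.0288 to 0.999 and for Prlr from 0.0412 to 0.858. The lowest for any other gene of the 10 was 0.0624 (Kl). Each is an extreme over the settings, by the test of that fit (edgeR, DESeq2 or limma-voom). For GCV against PBS in NestinTK+ mice the count of 7 became 0 with limma-voom and 3 with robust spread. It became 0 without the libraries with Ttr above 1%. In NestinTK- mice these counts were 1, 3 and 0. Under GCV, the count of 0 became 2 with DESeq2 and 3 with no filter. In the striatum, the 1 gene called after ablation became 0 with DESeq2, limma-voom or robust spread. GCV against PBS in NestinTK+ mice gave 0 with DESeq2 or limma-voom and 5 with no filter; in NestinTK- mice 1 with no filter and 1 with the mouse number series as covariate; between genotypes under GCV 2 with no filter, and under PBS 0 with DESeq2, limma-voom, robust spread or the number series and 4 with no filter. No striatum library has Ttr above 1%, so that setting gave no value there. The share of all genes called is not set beside the counts of DESeq2, limma-voom, robust spread, no filter or the number series. These counts therefore show only how far the number called moved with the setting.

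With 1 mouse left out, the SVZ counts lay between 2 and 6 for ablated against control, 1 and 10 for GCV against PBS in NestinTK+ mice, 3 and 9 in NestinTK- mice, 0 and 1 between genotypes under GCV and 0 and 7 under PBS. In the same order, these fits called 1.2% to 1.83%, 0.591% to 1.35%, 0.648% to 1.23%, 0.673% to 1.26% and 0.0495% to 0.634% of all genes. In the striatum the counts of the listed genes lay between 0 and 1, 0 and 2, 0 and 1, 0 and 1, and 0 and 3. Fits with the lowest counts (without A1, T2, A1, A1 and P1) called 0.706%, 0.694%, 2.41%, 2.03% and 0.875% of all genes. Fits with the highest counts (without G1, T1, T2, T2 and P2) called 0.784%, 1.62%, 2.72%, 2.31% and 0.848%. The difference in log2 Ttr lay between -3.75 and -1.96 in the SVZ and -1.98 and -0.80 in the striatum, no gene was correlated with Ttr, and r of Ttr between tissues lay between 0.31 and 0.67 (without mouse T4, permutation p = 0.0376), and was 0.73 without the 2 farthest mice.

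Against the NestinTK-GCV+ mice alone, the log2 fold changes after ablation turned to 0.83 (Ttr), 1.59 (Kl) and 0.00047 (Clic6) in the SVZ and to 1.97 (Ttr), 1.24 (Kl), -0.045 (Clic6), 2.58 (Otx2, called higher) and 0.60 (Prlr) in the striatum. In that striatum fit 307 of the 14536 genes tested were called higher. Kl and Kcnj13 turned to 1.65 and 1.42 in the SVZ without the libraries with Ttr above 1%. In the striatum Kl was 0.82 and Prlr 0.14 with DESeq2, Kl 0.94, Otx2 1.11 and Sostdc1 0.37 with limma-voom, and Clic6 -0.23 with the number series. With 1 mouse left out the striatum values lay between -0.78 and 0.75 (Kl), -0.088 and 0.15 (Clic6), -0.48 and 1.00 (Otx2), -1.29 and 0.55 (Sostdc1) and -1.55 and 0.14 (Prlr), each above 0 without mouse T2. The cause of these changes was not tested.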

Other observations

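Among the 12 SVZ libraries without high Ttr, the library of NestinTK+PBS+ mouse T2 held 579 counts of Prlr (45.9 CPM) and 209 of Otx2 (16.6 CPM) but no count of Kcnj13 and 1 of Slc4a5. These genes are expressed together in choroid plexus epithelium, and in the 3 high libraries Kcnj13 had more counts per 1000 Ttr counts (4.11 to 6.08) than Otx2 (1.12 to 1.23). Mouse T1, with the next highest Ttr after the 3 (789 CPM), had counts of all 10 genes, from 3 of Slc4a5 to 13094 of Ttr. Ablated mouse A3 had 29 counts of Slc4a5 and 17 of Kcnj13 beside 2 of Clic6 and none of Folr1. The SVZ libraries were amplified from low input; whether this has a part in single genes being present without the others was not tested.

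The spread of the 10 genes between mice of a group was wide also after edgeR's shrinkage. In the SVZ the biological coefficient of variation was from 1.22 (Clic6) to 2.75 (Kcnj13), beside a median of 0.685 over all genes, and in the striatum it was 0.273 for Clic6 and from 0.937 (Prlr) to 1.46 (Ttr) for the other 6 tested, beside a median of 0.259.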
